A study of Drosophila melanogaster with 1908 samples.

Results

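The transcription factor genes of the embryonic sensory organs were followed through embryogenesis of *Drosophila melanogaster*. They are 10 of the 23932 gene names in the count matrix, taken by name as the rows sens, ct, Poxn, ato, amos, cato, B-H1, B-H2, sv and ss. No measured value entered the choice, but earlier results of these data were known when it was made. RNA of single nuclei was profiled with sci-RNA-seq3, a method in which nuclei collect barcodes in 3 successive steps, and the barcode of the first step tells the collection window. Whole wild-type Canton S embryos were collected in 11 overlapping windows from 0-2 h to 16-20 h after egg laying at 25 °C, and the nuclei of several windows were processed together in each of 7 experiments (numbered 1, 2, 3, 4, 10, 11 and 12). Embryos of a window were pooled, no window carried a mutation or a treatment, and the windows from 6-10 h onward came only from experiments 1, 3 and 10. Each nucleus, called a cell here, also carries an age in hours that the authors inferred from its RNA with a neural network.

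The sense organs of the fly body wall arise from single precursor cells that divide asymmetrically into a neuron and its support cells. Proneural factors of the basic helix-loop-helix class select the precursors, and later factors set the kind of organ (external bristle-like organs, stretch-receptive chordotonal organs or multidendritic neurons) and the fate of each daughter cell. Many of these factors also act outside the sensory system, for example ct in the Malpighian tubules and the posterior spiracles and sens in the salivary gland.

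The matrix held 547805 cells and 347601285 unique molecular identifiers (UMIs, counts of distinct captured RNA molecules), with a median of 0.399 kUMI (1 kUMI is 1000 UMIs) per cell. UMIs were summed over the cells of an experiment and window, and 38 such sums of 100 or more cells, each holding 462334 to 36032867 UMIs, were used. A level is given in CPM, a gene's UMIs per 1000000 UMIs of such a sum. A sum over whole embryos cannot tell fewer cells that use a gene from less RNA of it per cell. Experiments were treated as replicates, and the tests measure the spread between them. The sources used here do not say whether each experiment had embryo collections of its own, so this spread may not include that between collections. No 2 cells shared a full name, and 920 cells shared their well index and barcode with a cell of another experiment.

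The 10 genes were detected at very different depths. Over all cells, ct had 156046 UMIs, sv 15218, ss 13852, sens 9157, B-H2 4689, B-H1 3419, Poxn 2994, ato 2275, amos 1278 and cato the fewest, so statements on ct rest on far more molecules than those on cato. Among the 380220 cells with an inferred age of 4 to 18 h, the share with at least 1 UMI was 17.8% for ct and 0.0518% for amos, with the other 8 genes between 0.0831% (cato) and 2.45% (sv). A cell with a UMI rarely had a second one for ato (6.62% of such cells), B-H1 (7.25%) and B-H2 (11.5%), and most often for ss (45.1%) and ct (44.2%). Most cells that express a gene at a low level therefore show no UMI of it at this depth, and a missing UMI is not read as absence.

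A share of cells with a UMI also includes RNA set free during preparation. Cells of an inferred age of at least 10 h with at least 3 UMIs of 10 muscle genes (69169 cells, median 0.384 kUMI) served as a class that should lack most sensory factors, against 73010 cells with no UMI of those genes (median 0.321 kUMI), with every cell thinned to 250 UMIs. The share with sens was 0.254% in the muscle-like cells and 0.731% in the others, with unthinned shares of 0.570% and 0.946%. For sv the thinned shares were 1.18% and 1.67% (unthinned 2.42% and 2.15%), for ss 1.03% and 1.504% (unthinned 1.84% and 1.91%), and for B-H2 0.480% and 0.651% (unthinned 1.07% and 0.868%). For ct (16.5% against 15.9%), Poxn (0.320% against 0.322%), B-H1 (0.489% against 0.401%), ato (0.0304% against 0.0205%) and cato (0.0260% against 0.0192%) the thinned share in muscle-like cells was close to or above that in the other cells. For these 5 genes a share at late ages is not read as expression, since free RNA and RNA made in muscle cells cannot be told apart here, and the results on cells below rest on comparisons between cells of matched age and depth.

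Gene models were taken from the BDGP6 annotation. The gene sens lies on chromosome arm 3L from 13396228 to 13401125 in 4 exonic segments, ct on X from 7608428 to 7678859, ato on 3R from 8278052 to 8279274 as a single exon, amos on 2L from 18596136 to 18596921, and ss on 3R from 16374434 to 16403690. The paralogues B-H1 (17397478 to 17403278) and B-H2 (17314581 to 17324175) are neighbours on X, and sv lies on chromosome 4 from 1088798 to 1113317. Poxn and cato are on 2R. Poxn lies inside tun, which is annotated on the opposite strand and had 28382 UMIs, and the end of sv overlaps Cals (112176 UMIs) on the opposite strand. The sources used here do not say whether the counting used strand, so UMIs of these pairs may be shared, and the same holds for reads that could fit both Barrel homeobox paralogues.

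**Figure D1:**
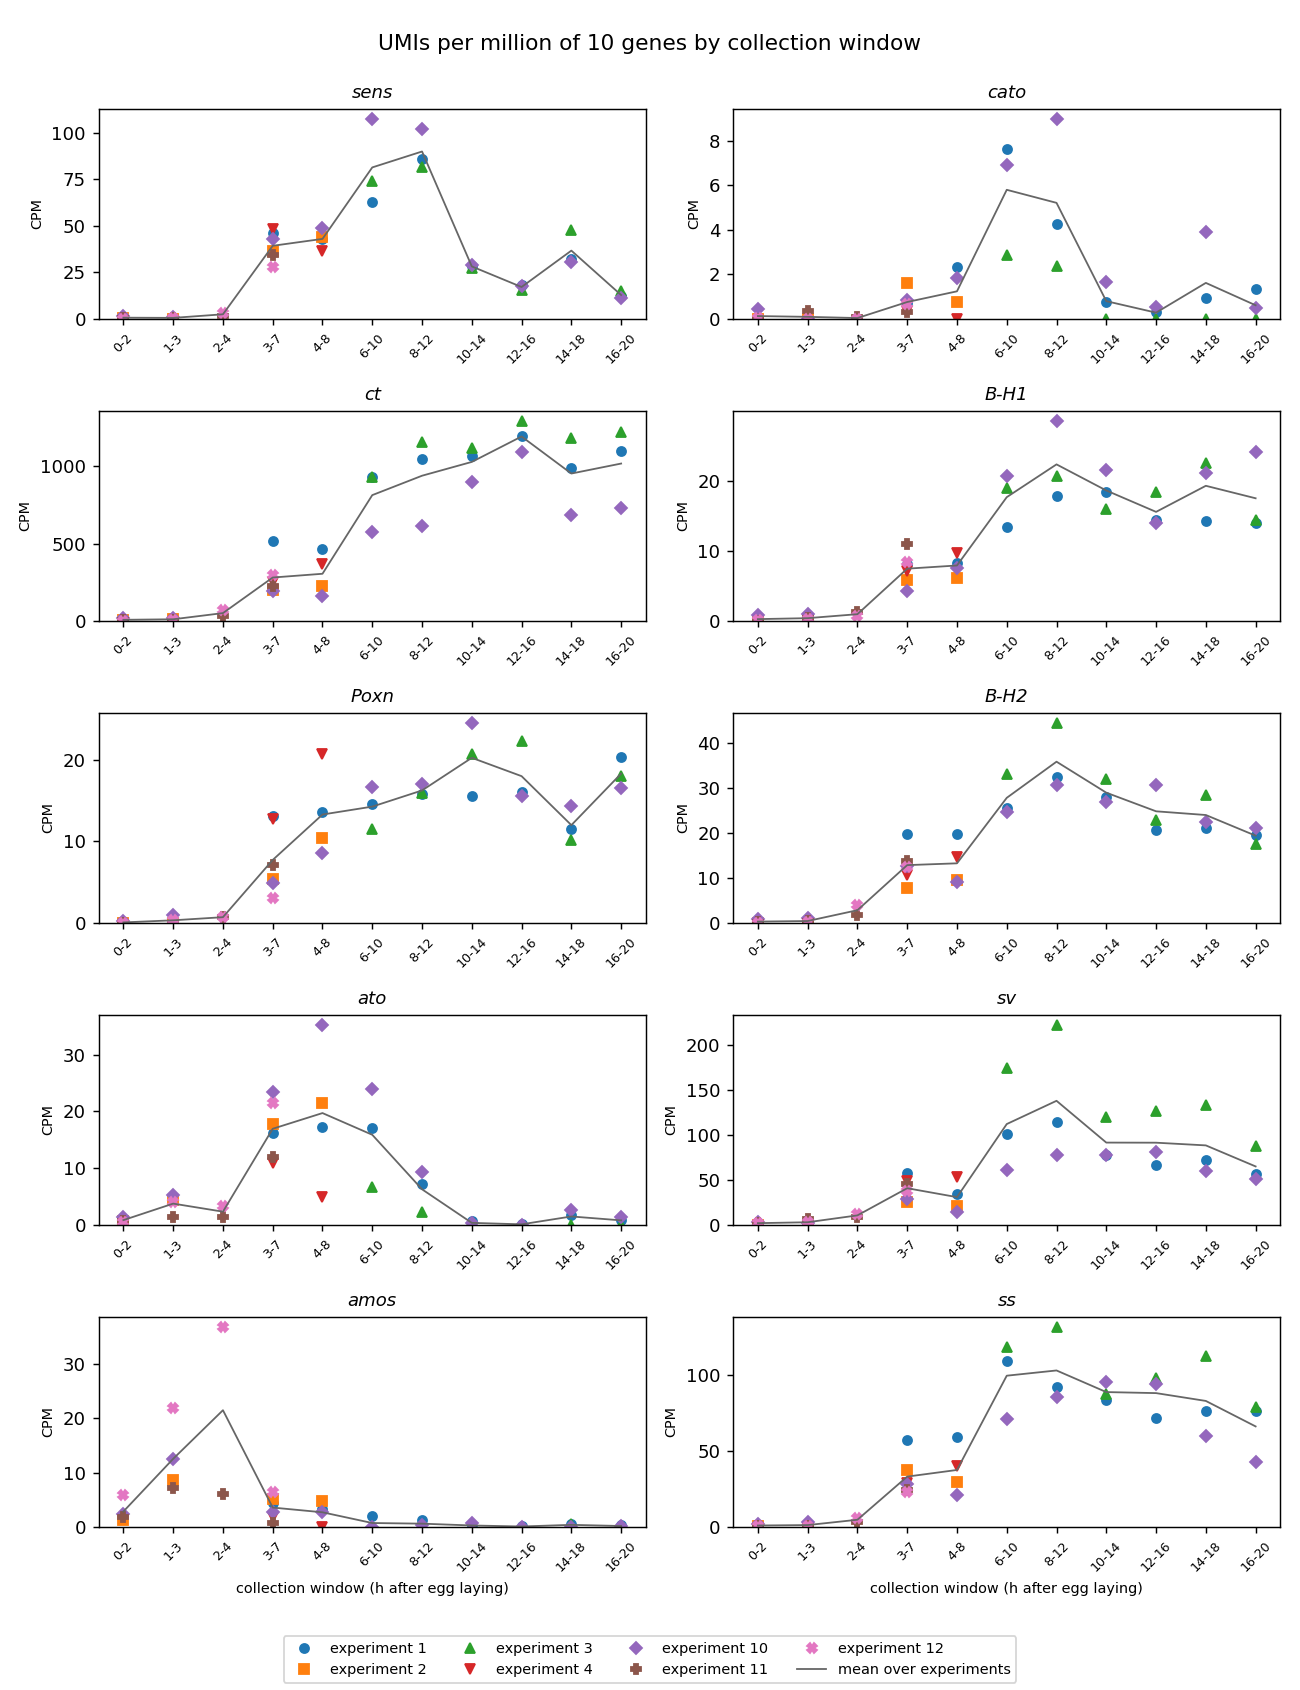
Level of each of the 10 genes (CPM, y axis, with a scale of its own in each panel) in each collection window (x axis, hours after egg laying). Each point is the sum of 1 experiment and window and the line joins the means. The gene amos is highest in the 1-3 h and 2-4 h windows, and ato reaches 35.2 CPM in the 4-8 h window. The gene sens peaks near 100 CPM in the 8-12 h window, and ct stays above 500 CPM from the 6-10 h window on.

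All 10 genes differed between collection windows (edgeR quasi-likelihood test of the window terms, adjusted p from 6.72e-16 for sens to 2.76e-06 for cato), against 87.2% of the 12116 genes tested. The onset was covered by the 3-7 h and 0-2 h windows, a contrast that was added after the data were seen because 4 experiments hold both windows. Here 9 of the 10 genes rose, where 70.4% of all tested genes were called and 43.4% were higher. The rise of cato (2.28, SE 0.94, edgeR adjusted p = 0.0302) was lost without experiment 2 (0.0968), experiment 11 (0.0703) or experiment 12 (0.0988). The exception was amos, at 0.685 to 6.37 CPM (median 3.57) in the 6 experiments of the 3-7 h window and 1.23, 2.32, 1.71 and 5.93 CPM in experiments 2, 10, 11 and 12 of the 0-2 h window, with overlapping groups and a log2 difference of -0.09 (SE 0.67, adjusted p = 0.91).

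The proneural genes came first. The gene amos encodes the factor that selects precursors of olfactory organs and of some multidendritic neurons. Its level was 8.65, 12.4, 7.21 and 21.8 CPM in experiments 2, 10, 11 and 12 of the 1-3 h window, and 6.11 and 36.9 CPM in experiments 11 and 12 of the 2-4 h window. It was 2.01 CPM (32 UMIs) in experiment 1 of the 6-10 h window and 0 in experiments 3 and 10, which allow up to 3 UMIs each. The groups did not overlap, and amos fell by 4.72 on the log2 scale from 2-4 h to 6-10 h (SE 1.02, edgeR adjusted p = 7.5e-04), against 14% of all tested genes that were lower.

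The gene ato encodes the proneural factor of chordotonal organs and photoreceptors. Its level in the 3-7 h window ranged from 10.9 to 23.3 CPM over 6 experiments (median 16.96) and was 0.614, 1.42, 0.644 and 0.542 CPM in the 4 experiments of the 0-2 h window, without overlap (log2 difference 4.05, SE 0.64, adjusted p = 1.2e-06). The experiments differed widely in the 4-8 h window, where ato was at 17.2, 21.4, 4.86 and 35.2 CPM in experiments 1, 2, 4 and 10. In the 6-10 h window it was at 17.1, 6.61 and 23.9 CPM in experiments 1, 3 and 10, and in the 10-14 h window only 6, 0 and 1 UMIs remained (0.632, 0 and 0.327 CPM). The groups were far apart, and ato fell by 5.26 on the log2 scale between these windows (SE 0.88, edgeR adjusted p = 7.1e-05). With the counts of each window pooled, the level in the 10-14 h window was 0.0291 of that in the 6-10 h window (95% counting interval 0.0116 to 0.0606).

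The gene cato encodes a relative of ato that acts in the precursor lineage after selection, mainly in chordotonal organs. It had the fewest UMIs of the 10 genes over all cells, and was at 7.62, 2.87 and 6.88 CPM in experiments 1, 3 and 10 of the 6-10 h window, with 1 UMI in all of the 2-4 h window. The pooled level was 115.8 times higher at 6-10 h, with a counting interval of 20.5 to 4604 that shows how little the single early UMI fixes the ratio. In the 10-14 h window 7, 0 and 5 UMIs were counted (0.737, 0 and 1.63 CPM), and the decrease of 2.89 on the log2 scale (SE 1.01) was only just called (adjusted p = 0.044). It was lost under 7 of 12 alternatives, among them DESeq2 (adjusted p = 0.054), leaving out experiment 1 (0.44), experiment 3 (0.104) or experiment 10 (0.0785), and was clearer with experiment as a block (adjusted p = 0.0012).

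The gene sens encodes a zinc-finger factor that keeps proneural genes active in the selected precursor. It was at 27.8 to 48.01 CPM over the 6 experiments of the 3-7 h window (median 39.6) and at 0.614, 1.27, 0.336 and 0.102 CPM in the 0-2 h window (log2 difference 5.90, SE 0.45, edgeR adjusted p = 2.6e-13). The level was 62.5, 74.1 and 107.3 CPM in experiments 1, 3 and 10 at 6-10 h and 85.8, 81.6 and 102.04 CPM at 8-12 h, then dropped to 28.1, 27.1 and 29.1 CPM at 10-14 h. These 3 last values lay close together and below all values of the 6-10 h window. The decrease from 6-10 h to 10-14 h was called (fell by 1.61 on the log2 scale, SE 0.41, adjusted p = 0.0056), against 5.09% of all tested genes that were lower. The call was lost without experiment 1 (adjusted p = 0.114), experiment 3 (0.0507) or experiment 10 (0.193), and with experiment as a block the adjusted p was 6.9e-05.

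The 4 genes that were called lower from 6-10 h to 10-14 h with experiment as a block were ato, sens, cato and amos (amos fell by 2.84, SE 1.14, adjusted p = 0.0452, and was not called without the block, adjusted p = 0.201). With the block, 42.1% of all tested genes were called and 22.7% were lower. The other 6 genes were not called in either fit, with log2 differences between -0.38 (sv, SE 0.54) and 0.42 (Poxn, SE 0.50) and overlapping values. In the fixed list of proneural and precursor-selection genes, 11 of 15 were lower and none of the 15 was higher (14 lower with the block), with a median log2 difference of -1.63 against -0.18 over all tested genes. Among them, the proneural gene l(1)sc fell by 4.16, its neighbour sc by 3.15 and phyl, which acts downstream of the proneural factors, by 1.63 on the log2 scale. Of 10 genes for asymmetric division, 5 were lower, among them insc, an adaptor that orients the spindle (fell by 1.32). Of all tested genes 11.5% were higher in this fit without the block and 19.4% with it. Of 10 pan-neuronal genes, 7 were higher, for example nSyb, a synaptic vesicle protein, by 4.25 and brp, an active zone protein, by 2.90. Of 5 support and attachment genes, 2 were higher, and nompA, which encodes a matrix protein that ties the dendrite to the cuticle, rose by 3.49. Of 6 genes of multidendritic neurons 1 was higher (RluA-1), and of 11 tested genes of chordotonal and ciliated neurons eys and nompB were higher and unc was lower, counts that are close to the share of all tested genes.

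The gene ct encodes a homeodomain factor of external sense organs that also grades dendrite size in multidendritic neurons. It had the most UMIs, at 195.7 to 515.5 CPM in the 3-7 h window (median 238.7), 931, 934 and 576.2 CPM in experiments 1, 3 and 10 at 6-10 h, 1194, 1294 and 1092 CPM at 12-16 h and 1103, 1224 and 728 CPM at 16-20 h. Experiment 10 was the lowest of these 3 in each window from 6-10 h on. The only change called was the onset (log2 difference 5.29 from 0-2 h to 3-7 h, SE 0.56, edgeR adjusted p = 3.9e-10, and 3.70 from 2-4 h to 6-10 h, SE 0.72, adjusted p = 2.3e-04), and the later differences of 0.25 (SE 0.54) and 0.17 (SE 0.54) were not called.

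Poxn, a paired-box gene, marks organs with several neurons, which serve taste in the adult. It had 2 UMIs in the 0-2 h window, both in experiment 10, while its level in the 3-7 h window was 3.02 to 13.1 CPM (median 6.23), a pooled ratio of 298.6 (counting interval 81.98 to 2477). Poxn was at 14.6, 11.5 and 16.6 CPM in experiments 1, 3 and 10 at 6-10 h and at 15.5, 20.7 and 24.5 CPM at 10-14 h. It was at 20.3, 17.999 and 16.5 CPM at 16-20 h. These 3 groups overlapped, with no call between them. At 14-18 h Poxn (10.2 to 14.3 CPM) was lower than at 12-16 h (15.6 to 22.3 CPM) in 3 of 3 experiments and without overlap. This difference was not called either.

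The Barrel homeobox genes B-H1 and B-H2 act in external organs and in parts of the central nervous system. At 8-12 h, their highest window, B-H1 was at 17.9, 20.6 and 28.5 CPM and B-H2 at 32.3, 44.4 and 30.6 CPM in experiments 1, 3 and 10. From 2-4 h to 6-10 h, B-H1 rose by 3.49 (SE 0.79, edgeR adjusted p = 0.0011) and B-H2 by 3.08 (SE 0.67, adjusted p = 7.8e-04) on the log2 scale. The B-H2 call was lost without experiment 11 (adjusted p = 0.0733). Both genes were still detected at the end, at 14.01, 14.4 and 24.1 CPM for B-H1 and 19.4, 17.5 and 21.1 CPM for B-H2 at 16-20 h.

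The gene sv encodes the Pax2 homologue, which is known for its role in the support cells of bristles. At 6-10 h it was at 101.2, 173.7 and 60.3 CPM and at 8-12 h at 114.03, 221.9 and 76.9 CPM in experiments 1, 3 and 10, with experiment 3 highest in every window from 6-10 h on. The log2 rise from 2-4 h to 6-10 h was 3.06 (SE 0.70, edgeR adjusted p = 0.0013), and without experiment 11 the adjusted p was 0.0513. The gene ss encodes a factor of the dioxin receptor class that diversifies dendrites and sets antennal identity. It was at 109.1, 118.3 and 71.3 CPM at 6-10 h, rose by 4.13 over 2-4 h (SE 0.62, adjusted p = 7.2e-06), and was at 76.6, 79.2 and 42.6 CPM at 16-20 h.

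Across the contrast of 6-10 h with 2-4 h, 9 genes rose and 1 fell, against 17.6% of all tested genes higher and 14% lower. With experiment as a block all 10 calls were kept, with 27.7% of all tested genes called. No experiment holds both windows, so experiment and window cannot be told apart here. The ato rise of 2.56 (SE 0.87, edgeR adjusted p = 0.024) was lost without experiment 1 (adjusted p = 0.0632), experiment 10 (0.0543), experiment 11 (0.278) or experiment 12 (0.0763), and the cato call without experiment 11 (0.132). From 10-14 h to 16-20 h none of the 10 genes was called by edgeR or by DESeq2, with 1 gene, sens, at an unadjusted p below 0.05 in edgeR and none in DESeq2, against 1.07% of all tested genes called. The sens level was 12.1, 14.9 and 11.2 CPM at 16-20 h, below the 3 values at 10-14 h, and with experiment as a block its decrease of 0.99 on the log2 scale (SE 0.30) was called (adjusted p = 0.0287, with 11.2% of all tested genes called in that fit). B-H2 (17.5 to 21.1 against 26.8 to 31.9 CPM) and ss (42.6 to 79.2 against 83.5 to 95.4 CPM) were also lower in 3 of 3 experiments without overlap. The gene sv was lower in 3 of 3 with overlap, and these genes were not called with or without the block.

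The level of sens did not fall steadily. It was 18.05, 15.4 and 17.7 CPM in experiments 1, 3 and 10 at 12-16 h and 31.9, 47.6 and 30.2 CPM at 14-18 h, higher in 3 of 3 experiments and without overlap. The contrast was added after these values were seen. It was not called without the block (log2 difference 1.14, SE 0.42, adjusted p = 0.654, with 0.0825% of all tested genes called), and with experiment as a block it was 1.08 (SE 0.30, adjusted p = 0.0351, with 3.9% of all tested genes called). In the same fit ato was called higher (adjusted p = 0.015), from 2, 0 and 0 UMIs to 15, 0 and 8 UMIs, a pooled ratio of 13.1 with a counting interval of 3.25 to 114.9, and with no UMI in experiment 3. Without the block, no gene of the 10 was called by edgeR or DESeq2, with 3 (ato, sens and cato) at an unadjusted p below 0.05 in edgeR and 2 (ato and sens) in DESeq2.

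The difference was also seen within cells of like inferred age. Cells of 12 to 14 h had 36.5, 31.8 and 33.2 CPM of sens in the 14-18 h window and 15.7, 17.5 and 12.3 CPM in the 12-16 h window (experiments 1, 3 and 10). Cells of under 12 h made up 6.03%, 6.73% and 4.38% of the 14-18 h window and 3.07%, 3.93% and 3.72% of the 12-16 h window. Other genes of progenitors moved with it. The summed level of the 6 neuroblast markers (dpn, mira, wor, ase, insc and SoxN) was 403.2, 349.5 and 805 CPM at 14-18 h against 258.9, 230 and 312.1 CPM at 12-16 h, and that of the 6 sensory precursor markers (ac, sc, ase, phyl, neur and chn) was 605.95, 804 and 776 CPM against 505.7, 606.1 and 581.7 CPM. The part of these shifts in the sens values was not tested.

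Binned by inferred age, the genes reached their highest mean level in the order amos, ato, cato, then sens with B-H1, B-H2, sv and ss, then ct and Poxn. The highest 1-h bin of amos was 1 to 2 h, at 8.47 ± 6.49 CPM (SD, n = 4 experiments), a spread so wide that the bins from 0 to 4 h do not differ beyond it. The gene ato peaked at 5 to 6 h (18.1 ± 9.002 CPM, n = 7) and cato at 8 to 9 h (4.64 ± 4.37 CPM, n = 4). The gene sens peaked at 10 to 11 h (87.6 ± 0.637 CPM, n = 3) and dropped to 28.1 ± 17.01 CPM in the next bin. Its level was over 50% of the highest in the bins from 6 to 11 h.

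For the later genes the top was flat. In the bin of 10 to 11 h, B-H1 was at 22.1 ± 2.08, B-H2 at 33.1 ± 12.7, sv at 128.1 ± 83.6 and ss at 112.1 ± 28.3 CPM (n = 3 each), and all 4 remained above 50% of these values up to 17 h or later. The highest bin of ct (1204 ± 138.02 CPM) and of Poxn (21.6 ± 7.78 CPM) was 13 to 14 h. Other settings moved the highest bin of B-H1 to 18 h (2-h bins, the mean of log-normalized values, or without experiment 1) and that of Poxn to 18 h (the first 2 of these, or without experiment 3), while that of ato stayed at 4 or 5 h in all 9 alternatives. That of sv moved to 7 h, before cato, without experiment 2, 3 or 4, that of cato to 10 h without experiment 1, that of B-H2 to 13 h without experiment 3, and that of ct to 18 h with log-normalized values. The order from cato to Poxn is therefore not fixed by these data.

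The genes whose profile along age was most like each member were found over 16 bins from 2 to 18 h, among 7662 genes (Pearson r of log2 of CPM plus 1, a description over bins that share experiments). The profile of B-H2 was closest to sns (r = 0.99), an adhesion molecule of fusing muscle cells, and next to ss (r = 0.98), another member of the set. That of sens was closest to lmd (0.98), that of ato to Tom (0.97), a Bearded-family antagonist of Notch signalling, that of ct to Wnt4 (0.99), that of sv to CG9650 (0.99), that of Poxn to otp (0.98), that of B-H1 to Oli (0.97), that of ss to bab2 (0.98) and that of amos to lncRNA:CR44931 (0.97). The closest to cato was Rim2 with a lower r of 0.90. Cals, which overlaps sv, was the third closest to Poxn (0.98) and not among the 3 closest to sv.

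To see which factors occur in the same cells, the number of cells with a UMI of both genes was divided by the number expected from each gene's share among cells of the same experiment, 1-h age bin and decile of UMIs per cell. This ratio is near 1 for unrelated genes. In cells of 4 to 18 h, the muscle gene Mhc gave 0.916 with sens, 1.00 with sv, 0.959 with ss, 1.02 with B-H1 and 0.976 with B-H2. Intervals of these ratios cover counting error only, cells of an experiment share their libraries, and the expected number falls short where depth varies within a stratum.

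**Figure D2:**
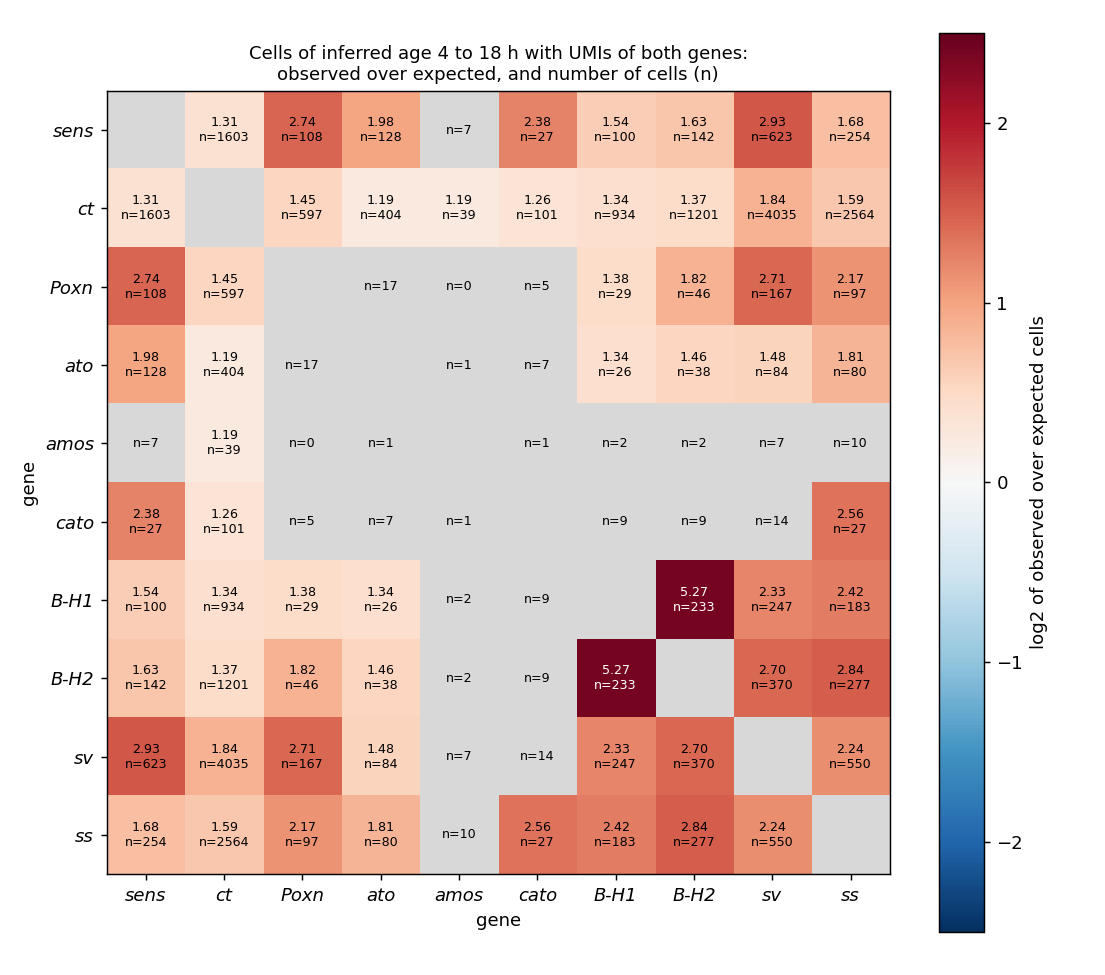
Cells of inferred age 4 to 18 h with UMIs of both genes, as observed over expected number (colour, log2 scale; number in each square) with the number of cells observed (n), for each pair of the 10 genes on both axes. Squares with under 20 cells are grey: B-H1 with B-H2 stands out at 5.27, and a block of sens, Poxn, sv, B-H2 and ss shows ratios from 1.63 to 2.93.

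The strongest pair was B-H1 with B-H2. Of the 2772 cells with B-H1, 8.41% also had B-H2, where 1.60% were expected (ratio 5.27, counting interval 4.61 to 5.99, above 1 in 4 of 4 experiments with at least 1 expected cell). It held at 6.16, 4.23 and 6.36 in cells of 4 to 8, 8 to 12 and 12 to 18 h. Since they are paralogues, reads that could fit both may be shared between their counts, and the part of such reads in this value was not tested.

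The partners ss and sv are no paralogues of the Barrel homeobox pair. Of the 3778 cells with B-H2, 7.33% had ss (ratio 2.84, interval 2.51 to 3.19) and 9.79% had sv (2.697, 2.43 to 2.99). Of the cells with B-H1, 6.60% had ss (2.42, 2.09 to 2.80) and 8.91% had sv (2.33, 2.05 to 2.64). Each of these 4 ratios was above 1 in 5 of 5 experiments.

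The next group joined precursor and fate genes. Of the 5818 cells with sens, 10.7% had sv where 3.65% were expected (ratio 2.93, interval 2.71 to 3.17, above 1 in 7 of 7 experiments), 1.86% had Poxn (2.74, 2.24 to 3.30, 5 of 5) and 27.6% had ct (1.31, 1.24 to 1.37, 7 of 7). Of the 1776 cells with Poxn, 9.40% had sv (2.71, 2.32 to 3.16) and 5.46% had ss (2.17, 1.76 to 2.64), each above 1 in 5 of 5 experiments. The gene ct was most often with sv (4035 cells, 1.84) and ss (2564 cells, 1.59), with lower ratios for sens, B-H1, B-H2 and Poxn (1.31 to 1.45).

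Pairs of ato, amos and cato were too rare for a direction. The genes ato and amos shared 1 cell where 4.22 were expected (ratio 0.237, interval 0.006 to 1.32, which includes 1), ato and cato shared 7 cells where 3.79 were expected (1.85, interval 0.743 to 3.81), and amos and cato shared 1 cell where 0.313 were expected (interval of the ratio 0.0809 to 17.8). Poxn and amos shared 0 cells where 1.30 were expected. Of the 1887 cells with ato, 6.78% had sens (1.98, interval 1.65 to 2.35, 6 of 6 experiments) and 80 cells had ss (1.81, 1.44 to 2.25). The gene cato occurred with sens in 27 cells (2.38, 1.57 to 3.46) but above 1 in only 1 of 2 experiments, and with ss in 27 cells (2.56, 1.68 to 3.72, 2 of 2).

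**Figure D3:**
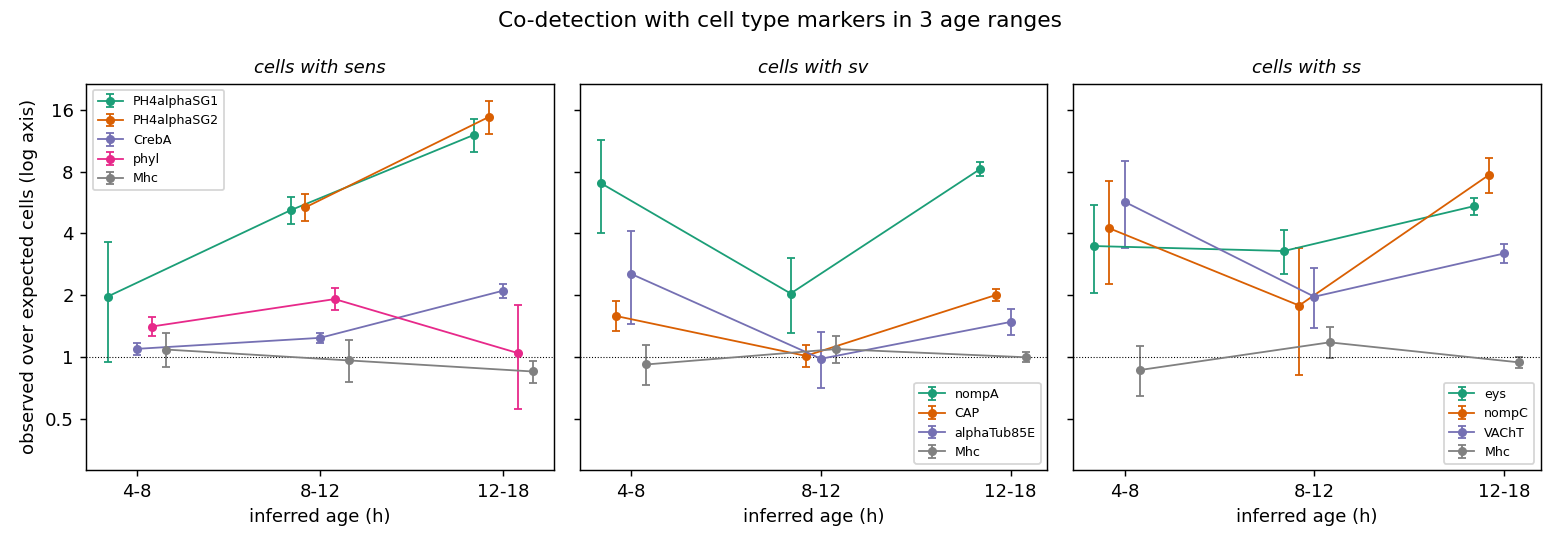
Ratio of observed over expected shared cells (y axis, log scale) in 3 spans of inferred age (x axis, hours). The panels show cells with sens, sv and ss, each with marker genes chosen after their values were seen and the muscle gene Mhc. Bars are 95% counting intervals, and a line marks 1. From the first to the last span the ratio of sens with PH4alphaSG1 goes from 1.97 to 12.1 and that of ss with eys from 3.47 to 5.42. That of sv with nompA goes from 7.02 through 2.04 to 8.24.

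The partners of sens were then compared by age. The ratio with sv was 3.99 (interval 3.49 to 4.54) in cells of 4 to 8 h, 2.71 at 8 to 12 h and 1.62 (40 cells, interval 1.15 to 2.20) at 12 to 18 h. With Poxn it went from 4.24 (58 cells, interval 3.22 to 5.48) through 2.11 (44 cells) to 1.23 (6 cells, interval 0.450 to 2.67), and with ct from 1.58 through 1.36 to 0.785 (interval 0.676 to 0.907, below 1 in 3 of 3 experiments). The ratios of single experiments in the first and last spans overlapped for sv (1.98 to 5.38 in 7 experiments and 1.02 to 3.64 in 3), and did not for Poxn (1.72 to 7.06 in 4 and 1.02 to 1.63 in 2) or ct (1.37 to 1.80 in 7 and 0.725 to 0.858 in 3). The muscle gene Mhc also lay below 1 with sens at 12 to 18 h (0.848, interval 0.749 to 0.957). Its single experiments ranged from 0.697 to 1.00, which overlaps the range of ct. The late ct value is therefore not read as a separation of sens from ct. The spans draw on different sets of experiments, so experiment and age are partly mixed. Poxn with sv also went down, from 6.22 (75 cells) to 1.48 (29 cells), whereas B-H2 with ss was at 3.99, 2.63 and 2.56.

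Late sens was found with salivary gland genes. PH4alphaSG1 and PH4alphaSG2 encode prolyl 4-hydroxylases of the salivary gland, and were in the fixed salivary gland list with sage, eyg and CrebA. The ratio of sens with PH4alphaSG1 was 1.97 (10 cells, interval 0.943 to 3.62) at 4 to 8 h, 5.19 (4.42 to 6.05) at 8 to 12 h and 12.1 (9.98 to 14.5) at 12 to 18 h, where 11.9% of the 971 cells with sens also had PH4alphaSG1 and 12.5% had PH4alphaSG2 (ratio 14.8, interval 12.2 to 17.6). Only 2 experiments had at least 1 expected cell at 12 to 18 h, and they differed far more than these counting intervals, with 2.36 and 17.8 for PH4alphaSG1 and 6.002 and 18.8 for PH4alphaSG2. With sage, the factor that drives salivary gland secretory genes, the ratio was 1.33, 2.29 and 5.60, and with CrebA, a general secretory regulator, 1.09, 1.24 and 2.102. The list itself was fixed, but its genes followed by age were picked after their values were seen, and eyg was not among them. Over 4 to 18 h, sens with the whole list (plot of marker lists) gave a lower ratio than with PH4alphaSG1 (6.26) or PH4alphaSG2 (6.83). The genes pip, CG14756 and nur were chosen for the same late pattern after their values were seen and add no support. At 12 to 18 h, 55.5% of the cells with sens had pip (ratio 7.25), 49.8% had CG14756 (5.98) and 57.4% had nur (4.35). Of the further chosen partners, FASN3 was at 0.912 (8 cells, interval 0.394 to 1.80) at these ages. Cyp4g1 was at 1.48 (15 cells, interval 0.831 to 2.45), too few cells for a direction. Over 4 to 18 h Cyp4g1 was at 1.43 (33 cells, interval 0.986 to 2.01) and above 1 in 5 of 5 experiments.

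**Figure D4:**
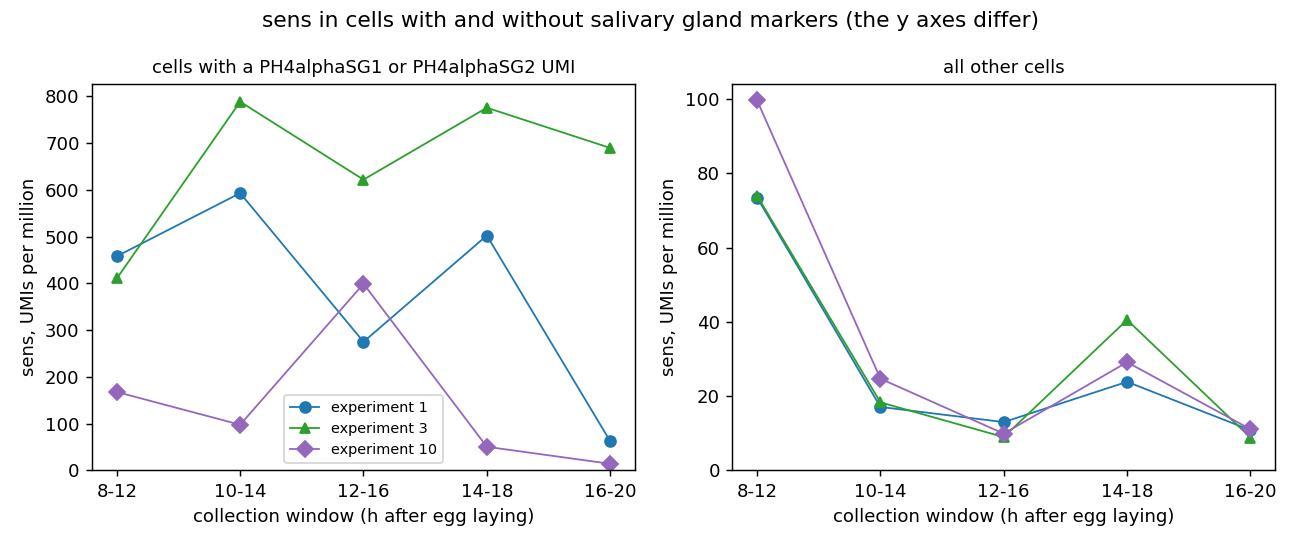
Level of sens (CPM, y axes with different scales) by collection window (x axis, h after egg laying) in cells with a PH4alphaSG1 or PH4alphaSG2 UMI (left) and in all other cells (right), with 1 line for each of experiments 1, 3 and 10. Cells with these UMIs reach 789 CPM in the 10-14 h window, and in the other cells sens is between 8.82 and 11.1 CPM in the 16-20 h window.

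Summed over cells with a UMI of either prolyl hydroxylase gene, sens was at 593.05, 789 and 97.4 CPM in experiments 1, 3 and 10 of the 10-14 h window, and at 17.1, 18.3 and 24.7 CPM in all other cells. At 12-16 h the values were 274.8, 621.8 and 399.03 CPM against 12.98, 8.94 and 9.87 CPM. These cells were 1.70%, 0.889% and 2.35% of the 10-14 h window, and they held 40.4%, 33.3% and 20.2% of the sens UMIs there. In experiment 10 at 16-20 h the 2 groups of cells had nearly the same level (13.8 and 11.1 CPM), and the cells with these UMIs had a median of 0.704 kUMI against 0.396 kUMI in the rest. The higher sens level at 14-18 h was also present in the other cells (23.8, 40.5 and 29.1 CPM against the 12.98, 8.94 and 9.87 CPM above), and the cells with these UMIs were at 502.3, 776 and 50.2 CPM.

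**Figure D5:**
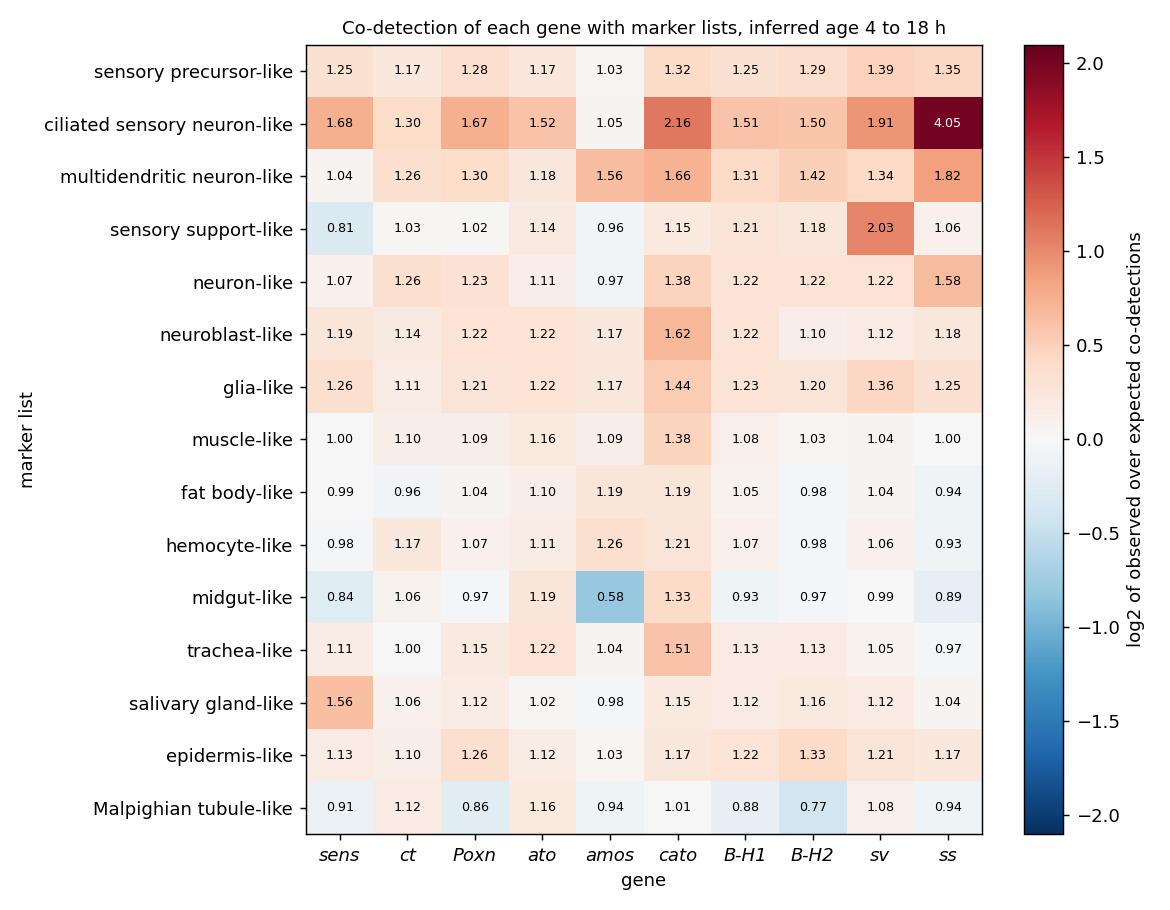
Observed over expected co-detections (colour, log2 scale; number in each square) of each of the 10 genes (x axis) with 15 marker lists (y axis) in cells of inferred age 4 to 18 h. The gene ss stands out with ciliated sensory neuron markers (4.05), sv with sensory support markers (2.03), cato with ciliated markers (2.16) and sens with salivary gland markers (1.56), while the muscle row lies between 1.00 and 1.38.

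The marker lists were compared in the same way. The muscle list, as a background, gave 1.00 to 1.16 for 9 genes and 1.38 for cato, so cato ratios are read against that level. The gene ss had the highest value, 4.05 with the 6 ciliated sensory neuron markers, with 2.696 at 4 to 8 h and 5.20 at 12 to 18 h. Its single partners included nompC, a mechanotransduction channel (1.82% of cells with ss, ratio 5.82, interval 4.85 to 6.93), fd3F, a forkhead factor of chordotonal neurons (70 cells, 5.62), eys, a luminal protein of chordotonal organs (7.75%, 4.93), and VAChT, the vesicular acetylcholine transporter (6.24%, 3.08).

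The gene sv stood out with support genes, mostly with nompA. Its value for the 3 support markers was 2.03 over all ages and 2.62 at 12 to 18 h (above 1 in 3 of 3 experiments). With nompA alone it was 7.34 (6.63% of cells with sv, interval 6.77 to 7.94) and 8.24 at 12 to 18 h (16.4%). The other support markers were lower over all ages, CAP at 1.60 and alphaTub85E at 1.39. At 8 to 12 h nompA was at 2.04, CAP at 1.01 (interval 0.895 to 1.14) and alphaTub85E at 0.978 (0.705 to 1.32). B-H1 and B-H2 gave 2.22 (77 cells) and 2.56 (91 cells) with nompA. The gene sens stood lower with the support markers (0.815 over all ages). For ct, the values with the multidendritic neuron channels ppk and ppk26 were 1.99 (interval 1.69 to 2.34) and 2.19 (1.83 to 2.61).

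Genes across the whole matrix were then compared between cells with a member and cells without it. For each cell with a UMI, 5 cells without one were drawn from the same experiment, age bin and decile of UMIs, the UMIs of each group were summed per experiment, and the sums were compared with experiment as a block, since both come from the same pools of nuclei. Without that block no gene was called for any member. The UMIs of the member itself were left out. For a pair of members, both such comparisons and the co-detection ratio rest on the same shared cells, so they are not separate evidence. The cells with sens had a median of 0.401 to 1.03 kUMI over the 7 experiments and their matches 0.395 to 0.991 kUMI.

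Among cells with sens, 4.08% of 6961 genes were called, 1.05% higher and 3.03% lower. The other members called higher were sv, Poxn, ct and ss. The level of sv ranged from 76.8 to 505.1 CPM (median 156.7) in cells with sens and from 12.96 to 158.3 CPM (median 39.1) in matched cells, higher in 7 of 7 experiments (log2 difference 2.097, SE 0.21, edgeR adjusted p = 5.2e-06). The level of ct ranged from 346.05 to 1285 CPM (median 534.7) against 179.5 to 947 CPM (median 318.3), also higher in 7 of 7 (0.68, SE 0.11, adjusted p = 8.8e-04). The calls of Poxn (1.40, SE 0.32, adjusted p = 0.0147) and ss (0.80, SE 0.18, adjusted p = 0.0137) rest on fewer UMIs. That of Poxn was lost under DESeq2 (adjusted p = 0.16) and without experiment 11 (0.090), and that of ss without experiment 1 (0.28) and with matching on age only (0.093).

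The genes most raised in cells with sens were a transposon entry, sv, meru, nrm and cpo. The entry FBti0059657, a Cr1a insertion on 3L (23027806 to 23029190), lies inside nrm (22998372 to 23040300) on the same strand, so its UMIs may belong to nrm, which encodes an immunoglobulin-like adhesion protein. The entry rose by 2.16 (SE 0.26) and nrm by 1.72 (SE 0.15, median 648.8 against 223.2 CPM). The gene meru, known for polarizing the division of the sensory precursor, rose by 2.08 (SE 0.19) and cpo, an RNA-binding protein of the peripheral nervous system, by 1.16 (SE 0.15). Of 15 proneural and precursor-selection genes 4 were higher, namely sca, phyl, Dl and chn (log2 differences of 0.52, 0.53, 0.27 and 0.23). Of 4 tested salivary gland genes 2 were higher, PH4alphaSG1 by 2.40 (SE 0.35, higher in 4 of 7 experiments) and CrebA by 0.52. The support genes CAP and alphaTub85E fell by 0.83 and 1.39, and 6 of 10 muscle markers were lower.

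Cells with sv were higher in sens and in support genes. Of 7030 genes 4.71% were called, 3.2% higher and 1.51% lower. The level of sens ranged from 57.6 to 185.3 CPM (median 153.7) in cells with sv and from 18.3 to 53.7 CPM (median 42.3) in matched cells, higher in 7 of 7 experiments (1.76, SE 0.20, edgeR adjusted p = 7.7e-05). The members ss (1.42), B-H2 (1.40), B-H1 (1.24) and ct (1.12) were also higher, as was Poxn (1.70, SE 0.35, adjusted p = 0.0106), whose call was lost without experiment 1 (0.073). The leading genes were CG12911 (3.93, SE 0.30) and nompA (3.64, SE 0.34, 1860 UMIs), followed by the same transposon entry, meru and nrm. All 3 tested support markers (nompA, CAP and alphaTub85E) were higher, and 6 of 14 proneural and precursor-selection genes (sc, chn, phyl, neur, sca and Dl).

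Cells with ss carried neuronal genes. Of 6415 genes 9.12% were called, the largest share among the 9 members tested, with 5.57% higher and 3.55% lower. The leading genes were pHCl-1, a chloride channel (2.94, SE 0.18), para, the voltage-gated sodium channel (2.58, SE 0.11, median 352.98 CPM against 38.03 CPM), meru, CG31221 and dysc. Of 9 tested pan-neuronal genes 8 were higher, among them brp by 1.15, nSyb by 1.04 and elav, an RNA-binding protein of all neurons, by 0.49. Both tested ciliated neuron genes were higher, eys by 2.52 (SE 0.18) and Rfx, a regulator of cilia genes, by 1.53 (SE 0.24). Of the members, B-H2 (1.64, SE 0.21), B-H1 (1.31) and sv (1.28) were higher, as were Poxn (0.97, adjusted p = 0.015, lost under DESeq2 with 0.066) and ct (0.46, adjusted p = 0.0064, lost under DESeq2 with 0.2, with matching on age only with 0.089 and without experiments 1 or 3 with 0.12 and 0.058).

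The 2 Barrel homeobox genes led each other's lists. The level of B-H2 was 54.2 to 253.5 CPM (median 73.9) in cells with B-H1 and 8.72 to 26.1 CPM (median 20.7) in matched cells over 5 experiments, without overlap (2.52, SE 0.26, edgeR adjusted p = 1.1e-05). The level of B-H1 was 41.5 to 128.04 CPM (median 53.2) in cells with B-H2 and 7.72 to 17.9 CPM (median 10.8) in matched cells over 6 experiments (2.56, SE 0.24, adjusted p = 2.1e-06). Called genes were 0.799% of those tested for B-H1 (0.192% higher and 0.607% lower) and 2.05% for B-H2 (0.796% higher and 1.26% lower). Both lists then held the Hox gene pb (1.81, SE 0.18, for B-H1 and 2.14, SE 0.26, for B-H2), ss (1.43 and 1.92), sv (1.38 and 1.80) and meru (1.12 and 1.60), in the same order. The meru call for B-H1 was lost without experiment 1 (adjusted p = 0.24).

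For Poxn, 24 of 5723 genes were called (0.419%) and 18 were higher (0.315%). The leading ones were sv (1.85, SE 0.36), meru (1.67), ss (1.41, SE 0.28), futsch, a neuronal microtubule-binding protein (1.16), and cpo (0.91). The level of sv was 71.3 to 592.9 CPM (median 235.9) in cells with Poxn and 20.2 to 159.005 CPM (median 42.6) in matched cells, higher in 5 of 5 experiments. These calls were marginal (edgeR adjusted p = 0.0413 for sv and ss). Without experiment 1 they were lost (0.52 for sv and 0.65 for ss), as without experiment 2 (0.053 for each) and experiment 11 (0.13 for each), and under DESeq2 for sv (0.10). The level of sens was higher in cells with Poxn by 1.48 (SE 0.35) without a call (adjusted p = 0.0828).

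The large class of cells with ct (67722) was the largest of those compared. Of 9590 genes 5.89% were called, 3.07% higher and 2.83% lower. The leading genes were Alp4 (2.91), an alkaline phosphatase, ppk26 (2.85) and ppk (2.52), channel subunits of nociceptive multidendritic neurons, CG33281 (2.76) and Had1 (2.13). The member sv was higher by 1.33 (SE 0.14, edgeR adjusted p = 3.0e-04), while the smaller differences of Poxn (0.81), ss (0.58), B-H1 (0.54), B-H2 (0.49) and sens (0.48) were each lost without experiment 1 (adjusted p = 0.095, 0.12, 0.20, 0.15 and 0.093) and partly without others. Of 10 pan-neuronal genes 7 were higher, and so were the muscle markers up and Mlp84B. Matches ran short in strata that held 51347 of these cells, and with 1 matched cell for each (66734 cells, median of 0.407 kUMI in both groups) 870 genes were called, 1.54 times as many.

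For the proneural members ato and amos, no gene was called higher. Among cells with ato, 60 of 4672 genes were called (1.28%) and all 60 were lower, among them the muscle genes Mhc and Mlc2, the fat body gene apolpp and the blood cell gene srp. The level of sens was higher by 0.88 (SE 0.25) without a call (adjusted p = 0.0833, higher in 5 of 7 experiments). Among cells with amos no gene of 3057 was called by edgeR or DESeq2 (0% of those tested), with 4.61% at an unadjusted p below 0.05 in edgeR and 29 genes in DESeq2. For cato only 2 experiments had at least 30 cells with a UMI, and no test was run. In these, ss was at 75.6 and 208.5 CPM in cells with cato and 59.8 and 74.4 CPM in matched cells.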

How the data were processed

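According to the submitters' processing notes and methods, reads were aligned to dm6 (BDGP6; STAR 2.7.3a is among the tools named), and the authors counted UMIs per gene and cell, filtered cells by UMIs, genes and ribosomal share, and removed doublets; no doublet caller was run again. The deposited matrix holds these counts without normalization. The deposited table of cells gives the percent of UMIs from ribosomal genes and from mitochondrial genes (values of the authors) and the inferred age in hours. No columns went unmapped. Symbols were matched to the Ensembl annotation (17199 of 18516, or 92.9%).

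Sums of UMIs were tested with edgeR 4.0.16 (R 4.3.3, limma 3.58.1, filterByExpr, TMM factors, quasi-likelihood, false discovery rate 0.05 over all genes tested), with DESeq2 1.42.0 as the other tool, after the code had been tested on simulated data. Other values used Python 3.11.15, NumPy 2.4.6, SciPy 1.17.1, pandas 2.3.3 and matplotlib 3.10.9. Windows were fitted together, without an experiment term. Since each experiment held several windows, the experiment is a shared batch. The residuals left after window means were taken off had a median r of 0.444 over 107 pairs of sums of the same experiment (above 0.1 in 97.2%) and -0.0872 over 544 pairs of different experiments, so blocked values stand beside results they change. Intervals are 95% and cover counting error.

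Named genes are the 10 members, the genes of fixed lists, the 5 genes with the largest rise in cells with a member (called, at least 20 UMIs, higher in every experiment) and the 3 most similar age profiles among genes reaching 20 CPM. Members, lists and tests were chosen with earlier results of these data known. The single partner genes whose co-detection was followed by age were picked after their values were seen. Alternatives were library sizes alone, DESeq2, no filter, cells with at least 400 UMIs, the block, other matching, and leaving out each experiment.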

Additional observations from a re-analysis of the deposited data

Results flagged for a closer look

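In 40 groups of 4 to 6 experiments (each gene in each window), 7 values stood far from the rest of their group. Where all other experiments of a group are at 0, the rule flags even a single UMI. No rate by chance is therefore set beside this number. Of these, 5 were from experiment 10 in the 0-2 h window. There ct was at 17.4 CPM against 0.712 to 3.07 CPM in the other experiments, ato at 1.42 CPM (19 UMIs) against 0.542 to 0.644 CPM, B-H2 at 0.823 CPM (11 UMIs) against 0 to 0.140 CPM, cato at 0.449 CPM (6 UMIs) against 0 to 0.0339 CPM, and Poxn at 0.150 CPM (2 UMIs) against 0. In that library 7.90% of cells had an inferred age of 4 h or more, against 15.8%, 0.214% and 1.16% in experiments 2, 11 and 12, and these cells held 73.7% of the ct UMIs, 8 of the 11 B-H2 UMIs, both Poxn UMIs, 2 of the 6 cato UMIs and 3 of the 19 ato UMIs. In the younger cells of experiment 10, ct was at 4.81 CPM and ato at 1.26 CPM. This split was added after seeing the data.

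In the 3-7 h window, experiment 1 had ct at 515.5 CPM (2840 UMIs) against 195.7 to 293.9 CPM in the other 5 experiments. In the 1-3 h window, the only cato UMI was in experiment 11 (0.343 CPM, counting interval 0.00869 to 1.91 CPM).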

How the results depend on the processing

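The folds of the members and named genes kept direction and call in 859 values over all alternatives, gained the call in 3 and lost it in the others, 56 of them without the experiment block in cells with a member. Co-detection ratios crossed 1 in 2 cases, both with cells thinned to 250 UMIs (ct with ato 0.942, ct with cato 0.845). Numbers of genes called are given as multiples of the reported number. With experiment as a replicate block, which fits the correlation within experiments, they were 2.54 for 10-14 h against 6-10 h, 10.4 for 16-20 h against 10-14 h and 47.2 for 14-18 h against 12-16 h. Without the block, 0 genes were called in cells with sens, ct, Poxn, ato, B-H1, B-H2, sv or ss. DESeq2 gave 2.08 for 16-20 h against 10-14 h, 3.6 for 14-18 h against 12-16 h, 0.644 for sens, 1.70 for ct, 0.417 for ato, 0.537 for B-H1 and 0.62 for B-H2. Library sizes alone gave 0.569 and 2.4 for these windows and 0.417 for Poxn, and cells with at least 400 UMIs gave 0.638 and 0.2. Without the filter on low counts the multiples were 2.04 for sens, 2.22 for ct, 6.12 for Poxn, 2.45 for ato, 3.43 for B-H1, 1.88 for B-H2 and 1.87 for sv, and 12 genes were called for amos. Matching on age only gave 0.417 for sv, and 1 matched cell for each cell (added after seeing the data) 1.54 for ct.

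Leaving out each experiment in turn gave 0.819 to 1.02 for the window terms, 0.28 to 1.01 for 6-10 h against 2-4 h, 0.254 to 1.02 for 10-14 h against 6-10 h, 0.0231 to 1.14 for 16-20 h against 10-14 h, 0.804 to 1.04 for 3-7 h against 0-2 h and 0 to 1.3 for 14-18 h against 12-16 h, the last 2 contrasts added after seeing the data. For cells with a member the ranges were 0.229 to 1.04 for sens, 0.333 to 1.16 for ct, 0.0833 to 2.46 for Poxn, 0.2 to 0.95 for ato, 0.296 to 2.39 for B-H1, 0.147 to 1.25 for B-H2, 0.332 to 1.12 for sv and 0.323 to 1.13 for ss, and 0 to 5 genes for amos. The number moved by over 1.5 times without experiment 1 in every one of these results but the window terms, 6-10 h against 2-4 h, 3-7 h against 0-2 h and amos, without experiment 3 in both late contrasts and for sens, ct, B-H2, sv and ss, without experiment 10 in the 3 contrasts from 10-14 h on and for Poxn, B-H1, sv and ss, without experiment 11 for 6-10 h against 2-4 h, Poxn, ato, B-H1 and B-H2, without experiment 2 in both late contrasts and for Poxn, ato and B-H1, and without experiment 12 for 14-18 h against 12-16 h. Levels of cato, amos and late ato rest on few UMIs.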
